A study of Homo sapiens with 6 samples.

Results

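The nuclear-encoded subunits of the respiratory chain were compared in H1, an established line of human embryonic stem cells, after 4 days of growth in wells coated with the recombinant laminin LN-521 alone or with LN-521+LN-221. Both groups were kept in Nutristem medium and collected at confluence, the labels name no genetic change or drug, and each group had 3 wells of this single line. The members were protein-coding genes chosen by symbol: the numbered NDUFA, NDUFB, NDUFC, NDUFS and NDUFV genes with NDUFAB1, SDHA to SDHD, the UQCR genes with CYC1, the COX4 to COX8 subunits, and the ATP5F1, ATP5M and ATP5P genes. This gave 86 of the 60499 gene IDs measured: 37 in complex I, 4 in complex II, 10 in complex III, 17 in complex IV and 18 in complex V. NDUFA4 was counted with complex IV, where its protein is found. The supercomplex factor COX7A2L, the paralogue NDUFA4L2 and the read-through genes ATP5MF-PTCD1 and NDUFC2-KCTD14 were left out.

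Complexes I and II pass electrons from NADH and succinate to ubiquinone, complex III passes them on to cytochrome c, and complex IV passes them to oxygen. Complexes I, III and IV pump protons across the inner mitochondrial membrane, and complex V, the ATP synthase, uses the returning protons to make ATP. Apart from complex II, each complex also holds at least 1 subunit encoded by mitochondrial DNA, so its assembly draws on both genomes. Human pluripotent stem cells carry functional respiratory chains while relying largely on glycolysis.

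The promoters are shown first because genes of the chain are known targets of the factors NRF1, GABP (an ETS factor) and YY1. RefSeq promoters (GRCh38.p14) of 300 bases, from 250 bases before to 50 after the gene start, were at hand for 69 of the 86 members. On both strands, 3 short words were searched: GCGC followed after 2 bases of any kind by GCGC as an NRF1-type word, CCGGAAG as an ETS-type word and ATGGCGG as a YY1-type word; words of different kinds can overlap at their ends and were counted separately. The NRF1-type word was in 18 of 69 members (26.1%), against 9.98% of the 27305 genes with a promoter of this length and 17.4% of the protein-coding genes tested for expression. The ETS-type word was in 21 members (30.4%), against 12.2% and 20.6% of the same genes. The YY1-type word was also in 21 members (30.4%), against 6.66% and 11.6%. It was in 15 of the 32 complex I genes with a promoter (46.9%) and in 1 of 14 of complex IV. A gene was counted if any of its promoters held the word, and some genes had more than 1 (35116 promoters in all). At least 1 of the words was in 47 members (68.1%), against 24.2% and 41.0%. Since each promoter reaches 50 bases past the start, a match can lie in transcribed bases. A match is a description of letters and not of a bound site.

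One stretch upstream of the start and free of exons was chosen for each of complexes I, III, IV and V, by the number of words and then by expression, with the words in capitals. For complex II none is shown, since none of its 3 genes with a promoter met the conditions. These were a single promoter for the gene and a long enough exon-free stretch that held a word. For NDUFB4, an accessory subunit of complex I, chr3:120596086-120596308 on the plus strand held the NRF1-type word at -159 and -63 from the RefSeq start. For UQCR11, a small subunit of complex III, chr19:1605491-1605712 on the minus strand held the ETS-type word at -117 and, on the other strand, at -97. For COX5B, a subunit of complex IV, chr2:97645812-97646039 on the plus strand held it at -37. For ATP5PD, a stalk subunit of complex V, chr17:75046986-75047183 on the minus strand held it on the other strand at -101. Each sequence is written 5′ to 3′ on the strand of its gene.
NDUFB4: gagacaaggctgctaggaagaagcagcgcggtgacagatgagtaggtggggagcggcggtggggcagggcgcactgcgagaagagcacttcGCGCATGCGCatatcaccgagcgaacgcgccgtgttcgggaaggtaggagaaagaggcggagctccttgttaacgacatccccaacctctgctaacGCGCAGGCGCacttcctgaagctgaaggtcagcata
UQCR11: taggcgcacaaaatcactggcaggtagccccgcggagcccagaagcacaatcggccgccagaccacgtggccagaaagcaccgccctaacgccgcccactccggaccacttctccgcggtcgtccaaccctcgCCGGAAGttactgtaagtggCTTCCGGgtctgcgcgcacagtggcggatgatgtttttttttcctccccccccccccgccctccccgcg
COX5B: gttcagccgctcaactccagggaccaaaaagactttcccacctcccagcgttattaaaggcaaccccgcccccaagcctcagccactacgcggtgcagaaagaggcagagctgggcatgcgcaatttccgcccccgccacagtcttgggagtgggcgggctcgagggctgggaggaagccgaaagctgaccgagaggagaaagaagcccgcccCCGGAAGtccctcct
ATP5PD: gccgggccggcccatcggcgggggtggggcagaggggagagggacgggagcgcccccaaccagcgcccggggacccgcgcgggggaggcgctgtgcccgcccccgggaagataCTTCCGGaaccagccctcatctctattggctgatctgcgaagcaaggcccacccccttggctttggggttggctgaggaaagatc

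The 6 libraries held between 20606450 and 26836686 counts. The cells matched their label: POU5F1, a defining gene of pluripotent cells, had a mean of 753.6 TPM, while of 19 markers of other lineages only KRT7 and TNNT2 were above 1 TPM, at 12.4 and 1.55. Of 8 pluripotency markers tested, 3 were lower on LN-521+LN-221 at the adjusted threshold (NANOG, TDGF1 and POU5F1, with log2 fold changes of -0.73, -0.65 and -0.36), 1 was higher (LIN28A, 0.23), and SOX2, DNMT3B, DPPA4 and L1TD1 did not pass (0.07, 0.05, -0.08 and -0.05). Their part in the results below was not tested. In bulk RNA, fewer cells of a type and less RNA per cell cannot be told apart. The labels do not say that the wells came from separate cultures, so p-values measure the spread between wells.

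Nearly every member was expressed. TPM, which is corrected for transcript length, averaged at least 10 over the 6 wells in 79 members and at least 100 in 33, with a median of 66.6. The median was 136.1 TPM for complex V, 108.1 for complex IV, 54.8 for complex I, 54.5 for complex III and 35.5 for complex II. COX7C, a small membrane subunit of complex IV, had the highest level of all members, at 789.9 ± 84.6 TPM on LN-521 against 795.4 ± 67.1 TPM on LN-521+LN-221 (n = 3 each, SD). The highest level in complex V was that of the catalytic-head subunit gene ATP5F1A, at 384.0 ± 21.6 and 405.4 ± 13.2 TPM (SD, n = 3 each). In complex III it was that of the hinge subunit UQCRH, at 316.9 ± 27.4 and 333.6 ± 0.795 TPM, and in complex I that of NDUFS5, at 279.7 ± 19.5 and 285.4 ± 10.4 TPM (SD, n = 3 each). The 4 genes of complex II were the most even, from 32.5 TPM for SDHA to 44.3 for SDHB. The members together summed to 9217 ± 532 TPM on LN-521 against 9240 ± 294 TPM on LN-521+LN-221 (n = 3 each, SD). This difference was smaller than the spread between wells.

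**Figure D1:**
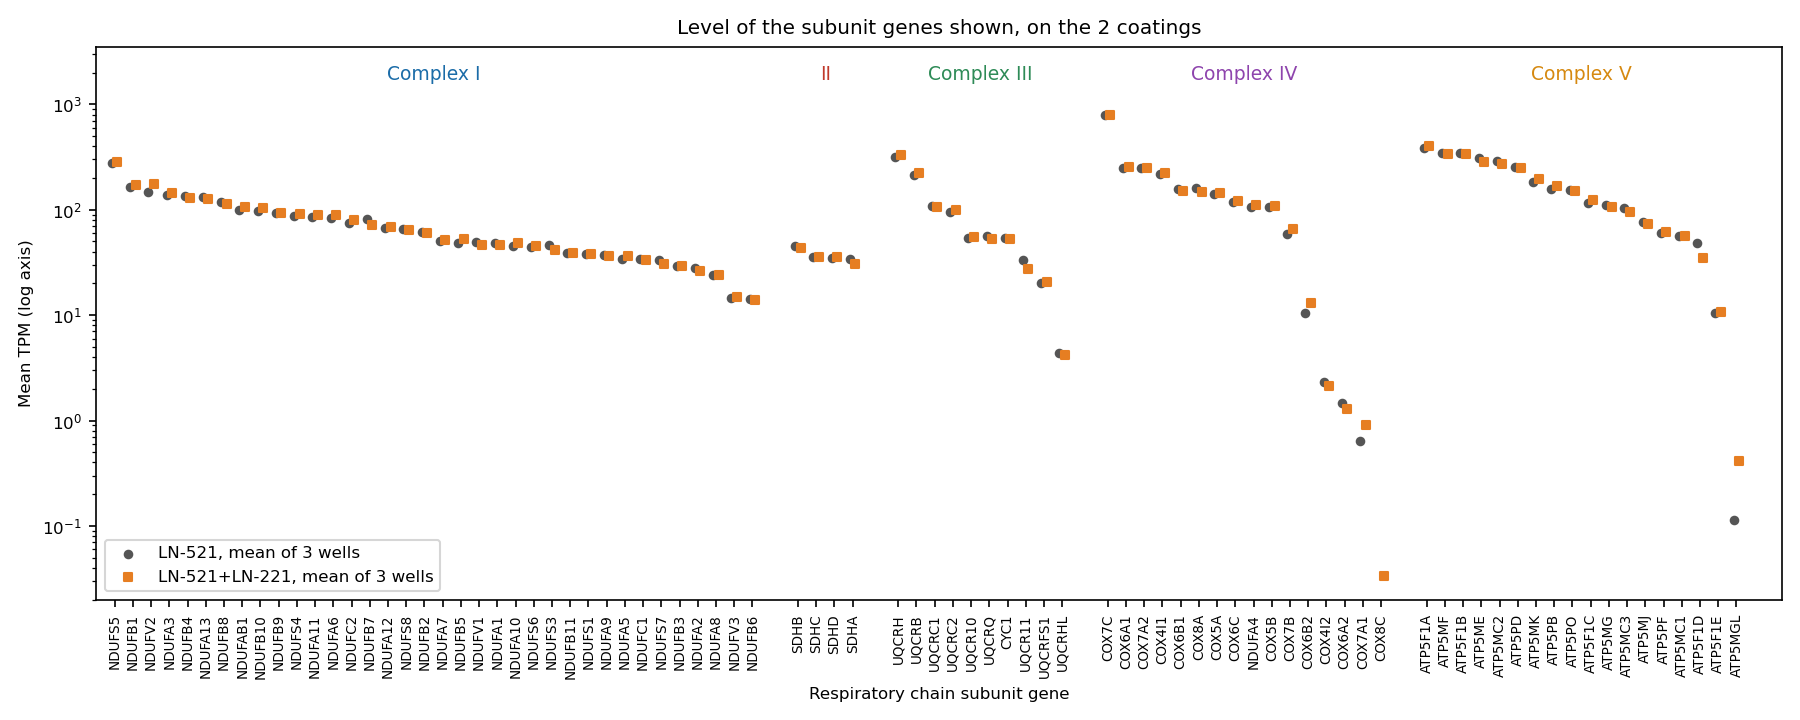
Mean TPM (log axis) of the subunit genes reported here on LN-521 (circles) and LN-521+LN-221 (squares), ordered within each complex by mean level, with 3 wells behind each point. Means of 0 cannot be drawn on this axis: COX7B2 is absent and COX8C has a point for LN-521+LN-221 alone. Levels run from 792.6 TPM for COX7C downward, and ATP5F1D is among the genes whose points lie visibly apart.

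On the mixed coating, nearly all subunit genes were expressed at levels close to those on laminin-521 alone. Of the 82 members expressed well enough to test, 1 differed at an adjusted p-value under 0.05 and it was lower: ATP5F1D, the delta subunit of the ATP synthase head (edgeR quasi-likelihood test, Benjamini-Hochberg adjustment over all genes). Over all 17608 genes tested, 2.53% passed in either direction, 1.4% higher and 1.14% lower. Before adjustment, 8 members were under 0.05, among them NDUFV2 and COX6B2 with higher and NDUFB7, SDHA, ATP5F1D, ATP5ME and ATP5MC2 with lower values, against 14.5% of all genes (7.05% higher and 7.49% lower). The count of calls changed with single libraries. Without LN-521+LN-221 replicate 2 no member passed. Without LN-521 replicate 1, NDUFV2 was higher and ATP5F1D, ATP5MC2, ATP5ME, COX6B1, COX8A, NDUFB7 and SDHA lower at the adjusted threshold, 8 members in all, while the share over all genes was 6.54%. CPM, which are counts scaled to the size of the library, did not overlap between the coatings in 14 members (17.1%), 12 of them lower, against 19.9% of all genes in either direction and 9.68% lower.

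The data bounded the differences tightly. The 95% interval of the log2 fold change, LN-521+LN-221 over LN-521, lay within ±0.5 in 79 of 82 members (96.3%), against 66.7% of all genes. The exceptions were ATP5F1D, and COX4I2 and COX6A2, which had few counts. It lay within ±0.25 in 55 members (67.1%), against 31.4% of all genes. The median standard error was 0.069 for members and 0.10 for all genes, and the median absolute log2 fold change was 0.061 and 0.11. All genes included some with 0 counts in a library, where the lowest count of a tested member was 6. Members were not compared with genes of like level.

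**Figure D2:**
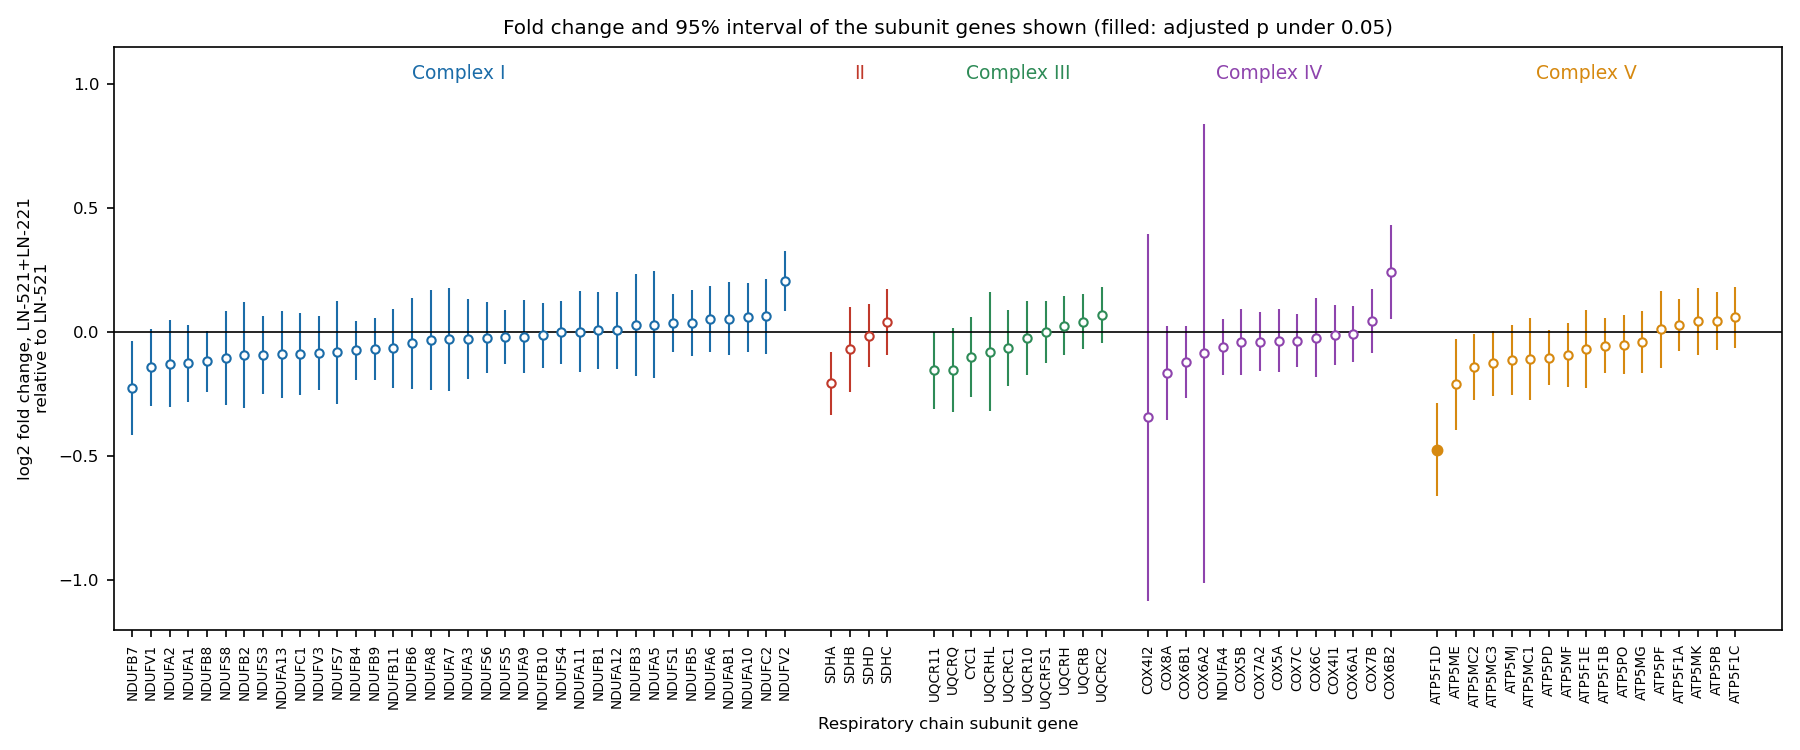
Log2 fold change of LN-521+LN-221 over LN-521 for the members tested and reported here, each with its 95% interval, sorted within each complex. ATP5F1D, the filled point, is the single member past the adjusted threshold, and the wide intervals are those of COX4I2 and COX6A2.

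The fold changes were unevenly spread about 0, with 59 of 82 below 0 (72.0%), against 50.3% of all genes, and a median of -0.039 against -0.0011. With limma on log2(TPM + 1), which changed the unit, the model, the filter and the scaling together, 39 of 82 lay below 0 and the member median was 0.0062, where the all-gene median was 0.035. Relative to the median of all genes, the member median was lower in each of 20 alternatives, by 0.017 to 0.064. The alternatives reuse the same libraries and are not independent of each other. Member transcripts were shorter, with a median of 1377 bases against 3351 for all genes, and with a correction for length 48 of 82 lay below 0 and the median was -0.014.

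By complex, the median log2 fold change was -0.068 for complex V, -0.044 for complex III, -0.042 for complex II, -0.037 for complex IV and -0.030 for complex I. With limma on log2(TPM + 1) the medians of complexes I, III and IV were above 0, at 0.0129, 0.00299 and 0.0129, and without LN-521 replicate 2 that of complex III was 0.00387. With the length correction the complex I median was -0.00673 and that of complex IV -0.00587. That of complex V was -0.0151 with limma on log2(TPM + 1), and that of complex II ranged from -0.0682 to -0.00875 without 1 library. On a log2 scale of CPM + 0.5, the median deviation of all members from their own means was 0.0044, 0.038 and 0.016 in the LN-521 wells and -0.053, -0.014 and -0.011 in the LN-521+LN-221 wells, which did not overlap, while the summed CPM of all members did. For complex V it was 0.0087, 0.077 and 0.033 in the LN-521 wells and -0.062, -0.037 and -0.013 in the LN-521+LN-221 wells, and these medians did not overlap between the coatings. The summed levels of complex V did overlap, at 2749, 2934 and 2834 CPM against 2699, 2788 and 2818 CPM, and also in TPM. For complex II the medians did not overlap either, at 0.012, 0.010 and 0.057 against -0.050, -0.021 and -0.044. Nor did its summed CPM, at 256.78, 264.97 and 269.38 against 248.14, 254.73 and 251.5, but its summed TPM did, at 160.16, 137.36 and 153.45 against 147.41, 146.02 and 142.25. For complexes I, III and IV the medians overlapped.

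**Figure D3:**
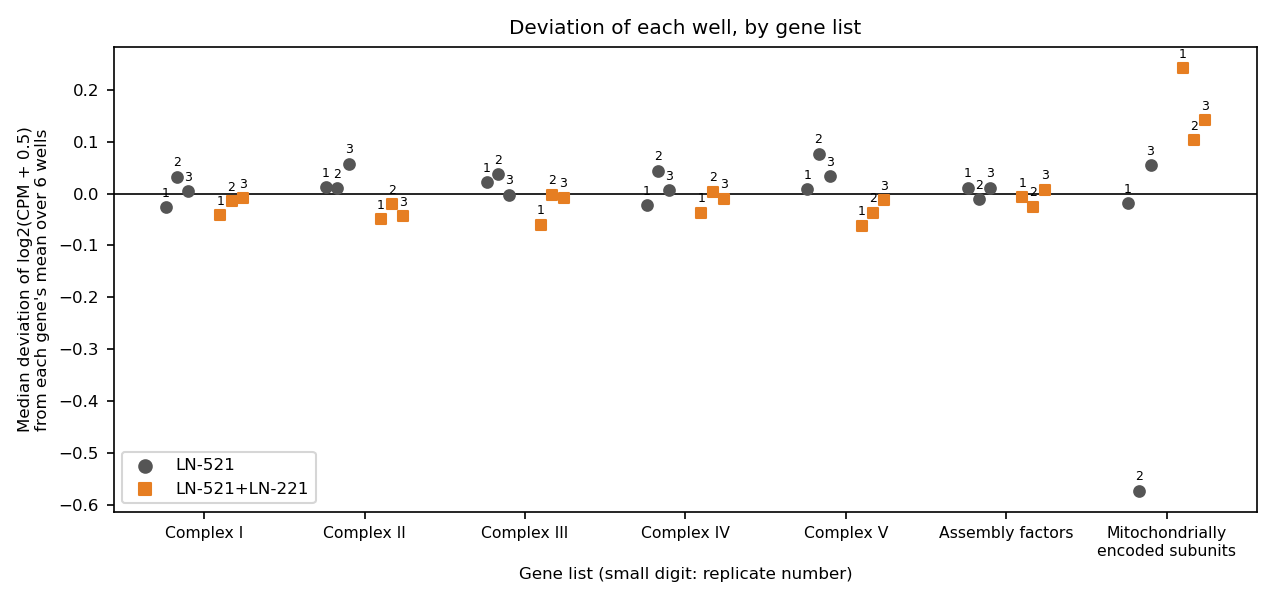
Median deviation of log2(CPM + 0.5) from each gene's mean over the 6 wells, by gene list and well, with circles for LN-521, squares for LN-521+LN-221 and digits for the replicate number. The subunit complexes stay between -0.062 and 0.077, while the mitochondrially encoded subunits reach -0.57 in LN-521 replicate 2.

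Complex I, the NADH dehydrogenase, had no member past the threshold among 37 tested with edgeR, 1 higher and 2 lower at an unadjusted p-value under 0.05, and 1 call with DESeq2. Its log2 fold changes ran from -0.23 to 0.21. At the upper end stood NDUFV2, an iron-sulfur subunit of the NADH-binding arm (ENSG00000178127, chromosome 18, 9102630 to 9134345). Its CPM was 146.4, 132.3 and 133.0 on LN-521 against 153.9, 161.4 and 159.5 on LN-521+LN-221. All 3 wells with laminin-221 were above all 3 without it, and the log2 fold change was 0.21 ± 0.06 (SE; edgeR adjusted p = 0.0667). It passed the threshold in 7 alternatives, among them DESeq2 (adjusted p = 0.0265). Its counts were not whole in any library, so some reads had been divided with other genes, and its named pseudogene NDUFV2P1 held 2.46% of their joint counts.

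NDUFV1, which binds NADH and flavin and pairs with NDUFV2 in the same arm, had 69.5, 82.3 and 71.9 CPM on LN-521 against 62.2, 70.4 and 70.1 CPM on LN-521+LN-221. Its wells overlapped, and its log2 fold change was -0.14 ± 0.07 (SE; edgeR adjusted p = 0.392). NDUFB7, an accessory subunit of the membrane arm, had 32.9, 41.2 and 36.3 CPM on LN-521 against 29.6, 30.1 and 34.7 CPM on LN-521+LN-221. Its groups overlapped through a low LN-521 well, and its log2 fold change was -0.23 ± 0.09 (SE; edgeR adjusted p = 0.239).

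NDUFS1, the largest iron-sulfur core subunit, gave 0.04 ± 0.06 (SE; edgeR adjusted p = 0.822), and its wells overlapped. NDUFAB1, the acyl carrier protein that also serves mitochondrial fatty acid synthesis, gave 0.05 ± 0.07 (SE; edgeR adjusted p = 0.786). The accessory subunit NDUFC2 gave 0.06 ± 0.07 (SE; edgeR adjusted p = 0.757). NDUFA1, NDUFB4, NDUFB8 and NDUFB9, accessory subunits named after their values were seen, also had wells that did not overlap, each lower on LN-521+LN-221 by no more than 0.13 on the log2 scale. None of these 4 passed the threshold.

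Complex II, succinate dehydrogenase, is built from 4 nuclear genes and also works in the citric acid cycle. SDHA, its flavin-binding catalytic subunit (ENSG00000073578, chromosome 5, 218241 to 256700), had 83.3, 93.5 and 90.7 CPM on LN-521 against 76.7, 77.8 and 77.4 CPM on LN-521+LN-221. All 3 mixed-coating wells were lower and close together, and the log2 fold change was -0.21 ± 0.06 (SE; edgeR adjusted p = 0.0867). It passed with the GC correction (adjusted p = 0.0130) and without LN-521 replicate 1 (adjusted p = 0.00560). Named SDHA pseudogenes held 17.9% of their joint counts. With these counts added to the gene, the log2 fold change was -0.16 (edgeR adjusted p = 0.171).

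The other 3 genes of complex II gave smaller values. SDHB, the iron-sulfur subunit, gave -0.07 ± 0.08 (SE; edgeR adjusted p = 0.766). The membrane anchors SDHC and SDHD gave 0.04 ± 0.06 and -0.01 ± 0.06 (SE; edgeR adjusted p = 0.822 and 0.943). The wells of these 3 genes overlapped between the coatings.

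Complex III, the cytochrome bc1 complex, had 10 members tested, none past the threshold with edgeR or DESeq2, 0 at an unadjusted edgeR p-value under 0.05, and log2 fold changes from -0.15 to 0.07. The most negative were those of UQCR11, whose promoter is printed above, and UQCRQ, both small subunits. UQCR11 had 33.0, 36.6 and 33.1 CPM on LN-521 against 30.1, 31.6 and 30.6 CPM on LN-521+LN-221, without overlap (log2 fold change -0.15 ± 0.07 SE; edgeR adjusted p = 0.345). UQCRQ had 24.5, 25.5 and 24.9 CPM on LN-521 against 20.9, 23.9 and 22.6 CPM on LN-521+LN-221, again without overlap (log2 fold change -0.15 ± 0.08 SE; edgeR adjusted p = 0.410). The counts of UQCR11 were not whole in any library, so some of its reads had been divided between genes. Its exons overlap those of ENSG00000267059 on the same strand. Among the subunits that carry electrons, cytochrome c1 (CYC1) gave -0.10 ± 0.08 and the Rieske iron-sulfur protein (UQCRFS1) -0.0008 ± 0.059 (SE; edgeR adjusted p = 0.597 and 0.997). The core subunits UQCRC1 and UQCRC2 gave -0.07 ± 0.07 and 0.07 ± 0.05, and the ubiquinone-binding subunit gene UQCRB 0.04 ± 0.05 (SE; edgeR adjusted p = 0.754, 0.601 and 0.782).

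Complex IV, cytochrome c oxidase, is the complex whose nuclear subunits come most often as isoform pairs, in which a widely expressed gene has a partner of more restricted expression in tissues such as lung, muscle or testis. The widely expressed genes dominated in every pair. COX4I2 made up 1.04 ± 0.188% of the TPM of COX4I1 and COX4I2 together on LN-521 against 0.948 ± 0.380% on LN-521+LN-221 (n = 3 each, SD). COX6A2, a heart and muscle form, made up 0.572 ± 0.214% and 0.502 ± 0.155% of its pair, and COX7A1, another muscle form, 0.264 ± 0.157% and 0.372 ± 0.142% (SD, n = 3 each). These shares differed between the coatings by less than the spread between wells. COX7B2 had 0 counts in all 6 libraries, and COX8C had 1 count in 1 library.

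COX6B2, known as a testis form, had the largest partner share. It made up 6.96, 6.22 and 5.38% of the COX6B pair on LN-521 against 7.93, 8.91 and 7.23% on LN-521+LN-221, and the coatings did not overlap. Its CPM was 12.9, 13.4 and 13.3 on LN-521 against 15.1, 15.4 and 16.5 on LN-521+LN-221. All wells with laminin-221 were higher, but the log2 fold change of 0.24 ± 0.09 (SE) did not pass (edgeR adjusted p = 0.202). It passed with the GC correction (adjusted p = 0.0452). COX6B2 (ENSG00000160471, chromosome 19, 55349306 to 55354814) overlaps exons of another gene on its strand, ENSG00000267706, and its counts were not whole in any library, so some of its reads had been divided between genes. Its partner COX6B1 gave -0.12 ± 0.07 (SE; edgeR adjusted p = 0.465).

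**Figure D4:**
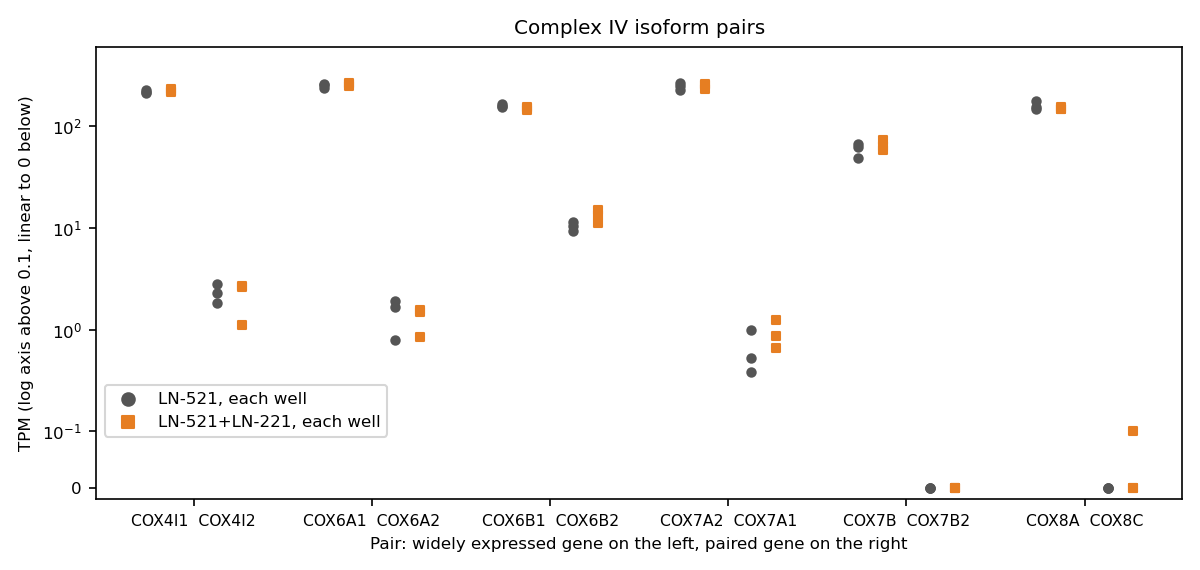
TPM of each well for 6 pairs of complex IV isoform genes, on an axis that is logarithmic above 0.1 and linear to 0 below it, with circles for LN-521 and squares for LN-521+LN-221. In each pair the widely expressed gene on the left lies far above its partner, and COX6B2 is the partner with the highest level.

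The remaining complex IV genes stayed closer to 0 or were measured with few counts. COX4I2, an oxygen-responsive form, gave -0.34 ± 0.35 (SE; edgeR adjusted p = 0.723), and its wells overlapped. COX8A gave -0.17 ± 0.09, COX4I1 -0.01 ± 0.06, COX5A -0.03 ± 0.06, COX5B -0.04 ± 0.06 and COX7C -0.03 ± 0.05 (SE; edgeR adjusted p = 0.423, 0.950, 0.848, 0.834 and 0.817). COX7B was at 0.04 ± 0.06 (SE; edgeR adjusted p = 0.805). In all, 12 of the 14 complex IV genes tested lay below 0, but none passed with edgeR or DESeq2, and 1 (COX6B2) was under 0.05 before adjustment.

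Complex V, the ATP synthase, held the single call. Its F1 head is made of alpha, beta, gamma, delta and epsilon subunits, of which beta carries the catalytic sites, and delta and epsilon sit with gamma on the rotating central stalk. ATP5F1D, the delta subunit gene (ENSG00000099624, chromosome 19, 1241746 to 1244826), had 22.4, 23.3 and 21.1 CPM on LN-521 against 17.3, 14.8 and 16 CPM on LN-521+LN-221. Every well with laminin-221 was below every well without it. Means were 22.3 ± 1.09 and 16 ± 1.27 CPM (SD, n = 3 each). The log2 fold change was -0.47 ± 0.09 (SE; 95% interval -0.66 to -0.29; edgeR adjusted p = 0.00561). On the length-corrected scale it went from 48.7 ± 5.47 to 34.9 ± 4.65 TPM (SD, n = 3 each). Its counts were whole in all libraries, it has no named pseudogene, and its exons overlap no other gene of the annotation.

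ATP5F1D kept its direction in every alternative run and its call in 17 of 20. The call was lost with limma on log2(TPM + 1) (-0.47, adjusted p = 0.346), with limma on log2(TPM + 0.1) (-0.48, adjusted p = 0.398) and without LN-521+LN-221 replicate 2 (-0.42, edgeR adjusted p = 0.0774). Adjusted p-values over the alternatives ran from 4.95e-05 to 0.398.

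The partners of the delta subunit in the head did not pass. ATP5F1E, the epsilon subunit gene, had 31.3, 33.3 and 30.1 CPM on LN-521 against 30.0, 29.1 and 31.3 CPM on LN-521+LN-221 (log2 fold change -0.07 ± 0.07 SE; edgeR adjusted p = 0.742). ATP5F1C, the gamma subunit gene, had 125.7, 115.8 and 121.9 CPM against 118.9, 131.8 and 128.0 CPM (0.06 ± 0.06 SE; edgeR adjusted p = 0.706). ATP5F1A, the alpha subunit gene, had 813.3, 883.7 and 831.7 CPM against 848.2, 860.7 and 869.1 CPM (0.03 ± 0.05 SE; edgeR adjusted p = 0.852). ATP5F1B, the beta subunit gene, gave -0.05 ± 0.05 (SE; edgeR adjusted p = 0.701). In each of these 4 genes the wells of the coatings overlapped. The difference between ATP5F1D and its partners was not itself tested.

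**Figure D5:**
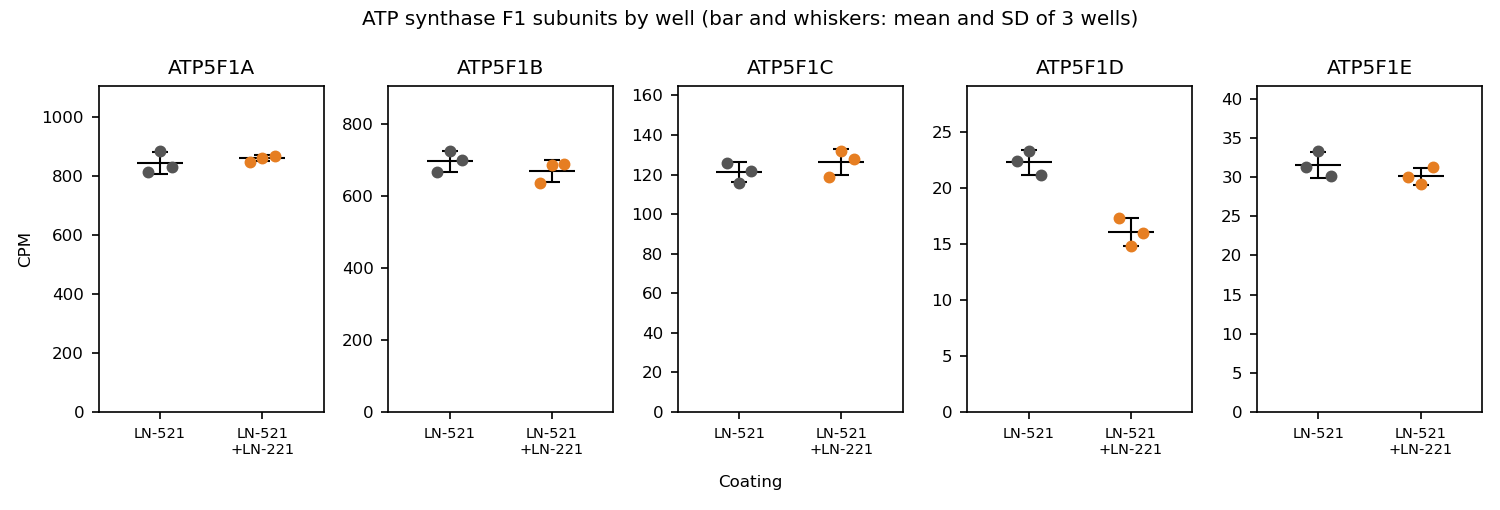
CPM of each well for the 5 subunit genes of the ATP synthase F1 head, with the mean and SD of 3 wells, each panel starting at 0 on its own scale. The wells of ATP5F1D separate, at 21.1 or more on LN-521 against 17.3 or less on LN-521+LN-221, while those of the other 4 genes overlap.

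In the membrane part of complex V, ATP5ME, which supports the dimer of the enzyme, had 66.5, 86.7 and 72.7 CPM on LN-521 against 60.1, 66.1 and 69.0 CPM on LN-521+LN-221. The groups overlapped, and the log2 fold change was -0.21 ± 0.09 (SE; edgeR adjusted p = 0.261). The exons of ATP5ME overlap those of MYL5 on the other strand, and use of the strand in counting is not given in the sources used here. The c-ring, through which protons pass, is built from 1 mature protein encoded by ATP5MC1, ATP5MC2 and ATP5MC3. These genes gave -0.11 ± 0.08, -0.14 ± 0.06 and -0.13 ± 0.06 (SE; edgeR adjusted p = 0.577, 0.306 and 0.369). ATP5MC2 supplied 64.4 ± 1.53% of the TPM of the 3 genes on LN-521 against 64.2 ± 2.04% on LN-521+LN-221 (n = 3 each, SD), so the proportions differed by less than the spread between wells. ATP5PB, of the peripheral stalk, gave 0.05 ± 0.06 (SE; edgeR adjusted p = 0.776).

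The 4 members not tested had too few counts. COX7A1 had 5, 13 and 7 counts on LN-521 against 8, 7 and 16 on LN-521+LN-221, and ATP5MGL, a paralogue of the membrane subunit gene ATP5MG, had 1, 3 and 3 against 7, 9 and 5 counts. COX8C and COX7B2 are given above. ATP5MGL was higher in all 3 LN-521+LN-221 wells. With no filter beyond 1 count its log2 fold change was 1.69 ± 0.79 (SE; edgeR adjusted p = 0.433) and that of COX7A1 0.46 ± 0.52 (SE; edgeR adjusted p = 0.722), neither past the threshold. UQCRHL, a near copy of UQCRH, was tested and gave -0.08 ± 0.11 (SE; edgeR adjusted p = 0.817) at 1.35 ± 0.174% and 1.24 ± 0.0708% of the pair's TPM (SD, n = 3 each). It had divided reads in all libraries, as did 15 members in total, and its share is therefore uncertain. In all, 34 members overlap exons of a gene on the other strand and 25 of a gene on the same strand.

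Genes that act with the subunits were read beside them. Of 57 assembly factors tested, none passed the threshold with edgeR, DESeq2 or limma, 23 lay above and 34 below 0, and the median was -0.016, while 3 higher and 2 lower ones had an unadjusted p-value under 0.05, against 7.05% higher and 7.49% lower over all genes. Of 18 regulators of mitochondrial biogenesis, which include NRF1, GABPA, YY1 and PPARGC1A, none passed in the same tests, 9 lay on each side of 0, and 1 higher and 2 lower reached an unadjusted p-value under 0.05. NRF1 gave 0.09 ± 0.09, GABPA 0.09 ± 0.06 and YY1 0.04 ± 0.05 (SE; edgeR adjusted p = 0.737, 0.572 and 0.821). The 3 regulators under 0.05 before adjustment, named after their values were seen, were POLG2 at 0.21 ± 0.09, and the coactivator genes PPARGC1A at -0.30 ± 0.14 and PPRC1 at -0.19 ± 0.07 (SE; edgeR adjusted p = 0.30, 0.331 and 0.203).

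The 13 subunits encoded by mitochondrial DNA all lay above 0, with a median of 0.34, where the nuclear members' median was -0.039. MT-CO2, a catalytic subunit of complex IV, rose from 247.4, 231.8 and 250.03 CPM to 300.1, 283.2 and 288.6 CPM (0.26 ± 0.05 SE; edgeR adjusted p = 0.0105). MT-CO3 of the same complex rose by 0.21 ± 0.05 and MT-ND3 of complex I by 0.36 ± 0.09 (SE; edgeR adjusted p = 0.0346 and 0.0374). In these 3 genes every LN-521+LN-221 well was above every LN-521 well. The list's median deviation was -0.57 in LN-521 replicate 2, against -0.02 and 0.05 in the other LN-521 wells and 0.24, 0.10 and 0.14 on LN-521+LN-221. Without that library the median was 0.19 with 2 genes called, and none was called in the 3 fits that each left out 1 LN-521+LN-221 library or with limma on TPM. The median was 0.307, 0.372 and 0.334 without LN-521+LN-221 replicates 1, 2 and 3. It was 0.428 and 0.431 with limma on log2(TPM + 1) and log2(TPM + 0.1). The difference between the nuclear and the mitochondrial lists was not tested.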

How the data were processed

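Total RNA libraries were made with a stranded kit, per the labels' protocols. Per the submitters' processing notes, cutadapt, STAR 2.5.2b, RSEM 1.2.31 and the hg38 build were used, and use of the strand in counting is not given in the sources used here. The authors deposited a gene table of expected counts, in which reads can be divided between genes, and a table of TPM. A count was taken as whole if its deposited value had no fractional part, with no tolerance. Symbols came from a table that held 93.1% of the gene IDs, and lengths, GC content, overlaps and coordinates (GRCh38) from GENCODE 29, which held 93.8%.

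Expected counts were rounded, filtered with filterByExpr (minimum count 10), scaled by TMM and tested with edgeR 4.0.16 (quasi-likelihood, robust, R 4.3.3) on all 6 libraries without a block. P-values were adjusted by Benjamini-Hochberg over 17608 genes, at a threshold of 0.05. SE is the absolute log2 fold change divided by the square root of F. CPM are rounded counts over TMM-scaled library sizes. Scripts were tested on simulated data. Alternatives were other scalings, filters and thresholds (0.01 and 0.1), DESeq2 1.42.0, limma 3.58.1 on TPM (pseudocounts 1 and 0.1, genes at 1 TPM in 3 libraries), a replicate block, GC and length corrections, pseudogene counts added to members, abundant RNAs removed, and each library left out.

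The members and lists were chosen with earlier results of these data known. Genes named are those past the threshold, the 2 highest and 2 lowest fold changes and the highest and lowest TPM of each complex, a fixed set of core subunits and the isoform pairs. Other genes were named after their values were seen. The values of 1 member, which is included in the counts and medians, are not reported here. SCO2, on the list of 58 assembly factors, matched no gene ID under that symbol and was not used here.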

Additional observations from a re-analysis of the deposited data

How the results depend on the processing

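The 446 calls over all genes became 718 with no filter beyond 1 count (336 higher, 46.8%, against 55.2% higher in the main test), 33 and 16 with limma on log2(TPM + 1) and log2(TPM + 0.1) (81.8% and 62.5% higher), 911 with the GC correction, 221 and 725 at thresholds of 0.01 and 0.1, and 194 to 1179 when a library was left out. The labels do not say whether same-numbered wells were paired. Deviations of same-numbered wells correlated at 0.068, -0.032 and -0.018, which cannot decide it, since most of a gene's deviation can be noise. The replicate block gave 646 calls (442 shared), 963 with the GC correction and 687 with the length correction. Members called higher numbered 1 with DESeq2, the replicate block, the length correction, either correction with the block, and the 0.1 threshold, and 2 with the GC correction. Members called lower numbered 0 with both limma fits, 2 with the GC correction and at the 0.1 threshold, and 3 with the GC correction and block. Of all genes tested, the share called in either direction was 5.17% with the GC correction and 5.47% with the block added. It was 3.5% with DESeq2, 3.67% with the replicate block, 2.74% with the length correction and 3.9% with that correction and block. With no filter beyond 1 count it was 1.98%, and with the 2 limma fits 0.229% and 0.111%. Without 1 library the members called ranged from 0 to 1 higher and 0 to 7 lower, against 1.09% to 6.54% of all genes. Mitochondrially encoded calls, 3 in the main test, numbered 5 with no filter beyond 1 count, with the replicate block and with the GC correction and block, 6 with the length correction and block, 0 with both limma fits and at the 0.01 threshold, and 0 to 5 without 1 library. Assembly factors and regulators ranged from 0 to 1 call without 1 library. The member median was 0.00622 and 0.00633 with the 2 limma fits and -0.0143 and -0.0142 with the length correction without and with the replicate block, and ranged from -0.0587 to -0.0220 without 1 library. In the same 2 limma fits the medians were 0.0129 and 0.0137 for complex I, 0.00299 and 0.00316 for complex III, 0.0129 and 0.0130 for complex IV, and -0.0151 and -0.0151 for complex V. With the length correction complex IV was at -0.00587, and with the replicate block added it was at -0.00548 and complex III at -0.0169. Without 1 library the medians ranged from -0.0587 to -0.00752 for complex I, -0.0682 to -0.00875 for complex II, -0.0545 to 0.00387 for complex III, -0.0480 to -0.0269 for complex IV and -0.0993 to -0.0536 for complex V. With the 2 limma fits, signs changed for ATP5MC1 (0.00564, 0.00579), COX4I1 (0.0331, 0.0332), COX5A (0.0127, 0.0127), COX5B (0.0068, 0.00687), COX6A1 (0.0406, 0.0408), COX7A2 (0.0132, 0.0132), COX7C (0.0118, 0.0118), NDUFS5 (0.0310, 0.0311), SDHC (-0.00396, -0.00416), SDHD (0.0224, 0.0230) and UQCRFS1 (0.0372, 0.0390). With the length correction, alone and with the replicate block, they changed for COX5B (0.0032, 0.00305), COX6A1 (0.0351, 0.0350), NDUFS1 (-0.00673, -0.0055), NDUFS5 (0.0290, 0.0292), SDHC (-0.00788, -0.00976), SDHD (0.0136, 0.0138) and UQCRFS1 (0.00202, 0.00244), and UQCRFS1 was at 0.000757 without abundant RNAs. Without 1 library, values crossed 0 for COX4I1 (-0.0433 to 0.0283), COX5A (-0.0568 to 0.00129), COX6A1 (-0.0306 to 0.0125), COX6A2 (-0.366 to 0.151), SDHB (-0.126 to 0.00944), UQCRC1 (-0.152 to 0.0223), UQCRFS1 (-0.0344 to 0.0281), UQCRH (-0.00985 to 0.0588) and UQCRHL (-0.163 to 0.0197). None of these genes had passed the threshold. Over the 43 tested members that the naming rule picked (other members were not counted), 549 results with all libraries and 233 with 1 left out kept direction and side of the threshold, 10 and 7 newly passed it, and 2 and 1, those of ATP5F1D, no longer did. The all-gene median shifted by up to 0.0405. For all these changes the cause was not tested. With 6 counts in a library at the lowest, COX6A2 and COX4I2 limit what depth could show.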
